A study of Rattus norvegicus with 13 samples.

Results

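Meiotic hotspots of moderate strength that the rat strains SHR and WKY have in common form the set described here, and it holds 9855 windows of 91120 on chromosomes 1 to 20, or 10.8%. The whole deposited table lists 96640 windows. Members were chosen by the measured strengths themselves. A member had a WKY strength of at least 150 and below 1000, a strength of at least 40 in wild-type SHR, and a WKY strength 2 to 8 times that of wild-type SHR. Its strength in SHR with 1 functional Prdm9 copy was more than 0.5 and less than 2 times the wild-type value, and its strength in BN was below 30. The levels in wild-type SHR, SHR KO/wt, WKY and BN are therefore a description of the choice. The library of SHR without functional Prdm9 set no bound, although a call in it could place a window in the table. The position of a window along its chromosome set no bound either, although the bounded KO/wt ratio varied with position.

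The libraries were DMC1 SSDS libraries from adult testes, with 1 library per group. They came from wild-type SHR/OlaIpcv, from SHR/OlaIpcv with the Prdm9+/- genotype (KO/wt), from SHR/OlaIpcv with the Prdm9-/- genotype (KO/KO), from wild-type WKY and from wild-type BN/RIJHsd. As the study describes them, the KO/KO male was homozygous for the KO39 deletion, which truncates the reading frame, and the wild-type SHR male was its littermate. The allele carried by the KO/wt animal is not given in the sources used here. The Prdm9 allele of WKY is that of SHR, while BN has a different one. With 1 library per group there is no replicate check of any difference between them, and no test between groups was possible. Intervals given with shares (Wilson) and with medians (binomial order statistics) are 95% intervals over windows. They cover counting error only, and windows of 1 library are not replicates of a condition.

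PRDM9 binds DNA through an array of zinc fingers and places trimethyl marks on lysines 4 and 36 of histone H3 at its binding sites. In many mammals these sites are where meiotic DSBs are made, so that different zinc-finger arrays give different hotspots. Where PRDM9 is missing, DSBs still form, at places that carry H3K4me3 for other reasons, such as promoters. DMC1 is the meiotic recombinase that loads onto single-stranded DNA at DSBs. SSDS sequences the single-stranded DNA recovered with an antibody against DMC1.

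The PRDM9 of SHR is encoded with zinc-finger repeats, and those below are the ones found in a supplementary sequence of the study for wild-type SHR. The sequence is shown because a shared array is what SHR and WKY have in common and BN lacks. Capitals mark the 3 codons in each repeat for the residues that in C2H2 zinc fingers make most of the base contacts. The sequence as given has 399 bases, and the bases before the first repeat printed, which starts at base 80, are left out. It ends within the last repeat, so 4 repeats and 68 bases of the last of them are printed. Whether the full array holds more repeats is not shown by it.

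SHR repeat 1: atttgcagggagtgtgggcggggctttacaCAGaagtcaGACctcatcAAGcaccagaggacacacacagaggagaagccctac

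SHR repeat 2: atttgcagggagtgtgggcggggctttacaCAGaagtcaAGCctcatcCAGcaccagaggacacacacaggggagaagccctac

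SHR repeat 3: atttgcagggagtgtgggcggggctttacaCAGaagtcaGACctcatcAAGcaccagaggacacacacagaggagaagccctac

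SHR repeat 4: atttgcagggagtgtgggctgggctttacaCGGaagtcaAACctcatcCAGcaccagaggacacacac

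Repeats 1 and 3 had no differing base over 84 bases. Repeat 2 differed from each of them at 4 bases of 84, and repeat 4 differed from repeats 1 and 3 at 4 of the 68 bases given. Most of the repeat was thus the same in each copy, and the marked codons held most of what differed.

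The KO39 transcript lacks part of an exon that encodes the PR/SET domain, upstream of these fingers. The partial cDNAs below show the change behind the KO/KO library, with the 29 bases that are missing from KO39 in capitals. Because flanking bases repeat, 3 placements of the same 29-base deletion give the same KO39 sequence, and 1 of them is drawn.

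Wild-type Prdm9 cDNA: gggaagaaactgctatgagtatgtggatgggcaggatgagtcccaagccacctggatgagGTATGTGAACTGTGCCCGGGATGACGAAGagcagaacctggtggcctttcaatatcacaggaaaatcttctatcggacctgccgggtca

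KO39 Prdm9 cDNA: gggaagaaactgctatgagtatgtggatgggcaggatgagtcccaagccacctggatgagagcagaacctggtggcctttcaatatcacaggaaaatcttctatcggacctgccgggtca

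The strength of a hotspot is the authors' score for each window and library, a whole number that can fall below 0. How it was computed and scaled between libraries is not given in the sources used here, so ratios between libraries carry an unknown factor. Their order among windows does not depend on a factor common to a library. The number of reads is unknown, and each library is described here by its summed autosomal strength, which ran from 2691262 in wild-type SHR to 12607770 in WKY. The table lists a window where a hotspot was called in at least 1 library, in rn5 coordinates, and 96639 windows are 3000 bp long. Windows may overlap, which applied to 17.4% of the autosomal windows and to 1638 members (16.6%, 15.9 to 17.4%), and overlapping windows share signal. Values that could rest on shared signal are therefore also given for the 8217 members that overlap no other window.

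The bounds cut through continuous distributions. The bound on WKY strength alone kept 1381 windows out, that on wild-type SHR strength 1807, that on BN strength 483, and each of the bounds on the ratios 1861. Just inside the lower WKY bound, a window at chr1:58625138-58628138 had a WKY strength of 150 and an SHR strength of 47. Just outside it, a window at chr2:80034431-80037431 had 149 and 50. At the upper WKY bound the pair was chr2:271011387-271014387, with 999 and 159, and chr5:78283269-78286269, with 1000 and 197. At the bound on wild-type SHR, chr1:131198484-131201484 was inside with an SHR strength of 40 and a WKY strength of 259, and chr1:52408015-52411015 was outside with 39 and 279. At the BN bound, chr3:108918049-108921049 had a BN strength of 29 and chr2:236555249-236558249 had 30. Windows on either side of a bound were thus alike in the libraries that define it.

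The scores of members were highest in WKY, lower in both SHR libraries with PRDM9, and near 0 in KO/KO and BN. Scores of different libraries have no known common scale. The summed autosomal strength was itself higher in WKY, at 12607770, than in wild-type SHR, at 2691262. The median strength was 370 in WKY (364 to 375), with a range of 150 to 999. In wild-type SHR the median was 87 (86 to 88) and the range 40 to 469, and in SHR KO/wt the median was 84 (83 to 86) and the range 21 to 743. In KO/KO the median was 3 (3 to 3), with a 5th to 95th percentile of -4 to 14, and in BN it was 9 (9 to 9), with -3 to 20. In 3 of the 5 libraries the members held a larger part of the summed autosomal strength than their 10.8% of windows. That part was 39.0% in wild-type SHR, 33.9% in SHR KO/wt and 33.1% in WKY, which are the libraries whose minimum strength the choice set directly or through a ratio. It was 3.03% in BN and 1.25% in KO/KO.

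**Figure D1:**
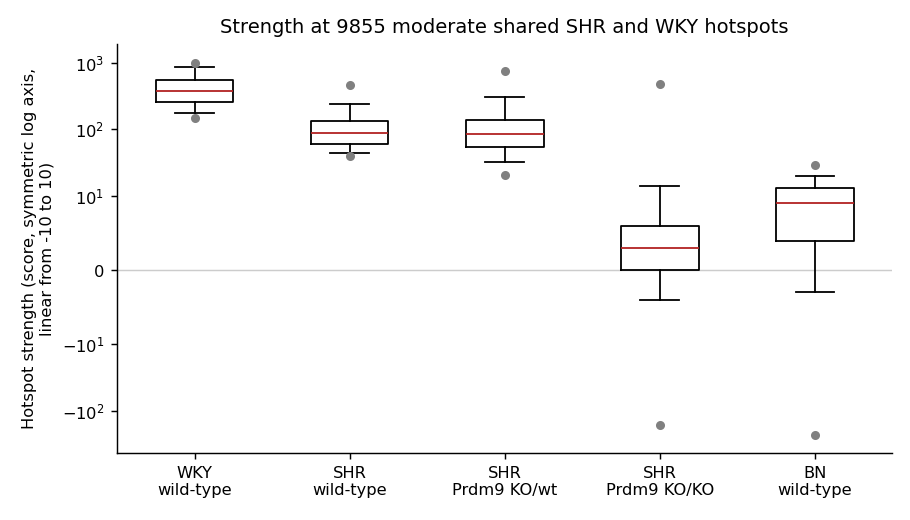
Hotspot strength (score, vertical axis on a symmetric log scale) of the 9855 member windows in each of the 5 libraries, with the median as a red line, boxes over the middle 50%, whiskers from the 5th to the 95th percentile and grey points at the lowest and highest window. The members sat at medians of 370 in WKY, 87 in wild-type SHR and 84 in SHR KO/wt, against 9 in BN and 3 in KO/KO.

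The member closest to the middle rank over the 5 strengths lay at chr14:41335604-41338604. It had a strength of 379 in WKY, 95 in wild-type SHR, 83 in SHR KO/wt, 3 in KO/KO and 7 in BN, and it was called a hotspot in wild-type SHR, KO/wt and WKY. Most members had this combination of calls. At the upper end, the member with the highest wild-type SHR strength lay at chr10:50309724-50312724, with 996 in WKY, 469 in wild-type SHR, 571 in SHR KO/wt, 4 in KO/KO and 15 in BN. The next was chr6:109769977-109772977, with 990 in WKY, 457 in wild-type SHR, 723 in SHR KO/wt, 10 in KO/KO and 14 in BN. The 5 members with the highest wild-type SHR strength had KO/wt strengths of 571 to 723, each above its wild-type strength, and none was called in KO/KO.

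Members were called as hotspots far more often than the average window in the libraries that chose them. A hotspot was called in WKY at 9506 members (96.5%, 96.1 to 96.8%), against 38.3% of all autosomal windows. It was called in wild-type SHR at 9047 members (91.8%, 91.2 to 92.3%), against 21.8%, and in SHR KO/wt at 8688 (88.2%, 87.5 to 88.8%), against 21.6%. Both wild-type SHR and WKY had a call at 8835 members (89.6%, 89.0 to 90.2%), against 19.6%. Nothing is read from these shares, since the rule used the same libraries. The commonest combination of calls was wild-type SHR, KO/wt and WKY without the other libraries, at 8315 members. Next came WKY alone at 577 and wild-type SHR with WKY at 459.

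A few members met the strength bounds without a call in the library concerned. There were 349 members with no call in WKY, and 347 of them overlapped another window. There were 808 members with no call in wild-type SHR, of which 45.7% overlapped another window, and their medians were 286 in WKY and 66.5 in wild-type SHR. The 79 members called in KO/KO alone carried strengths within all bounds without a call in SHR or WKY.

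The WKY strength of a member was a median 4.17 times its wild-type SHR strength (4.12 to 4.20), with a 5th to 95th percentile of 2.27 to 7.14 inside the bounds of 2 and 8. Because the scale of the score in each library is unknown, this factor is not a fold difference in DSBs. Among members, wild-type SHR and WKY strengths had a Spearman correlation of 0.757 (n = 9855 windows, 1 library each), and the bounds on the ratio set part of it. In the 8217 members overlapping no other window it was 0.757. When members were put into 5 classes of 1971 windows by WKY strength, the lowest class, with strengths of 150 to 241, had a median ratio of 3.48 (3.41 to 3.53). The other 4 classes had 4.31, 4.55, 4.46 and 4.48, in rising order of WKY strength. The minimum of 40 in wild-type SHR removes high ratios in the lowest class by construction.

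**Figure D2:**
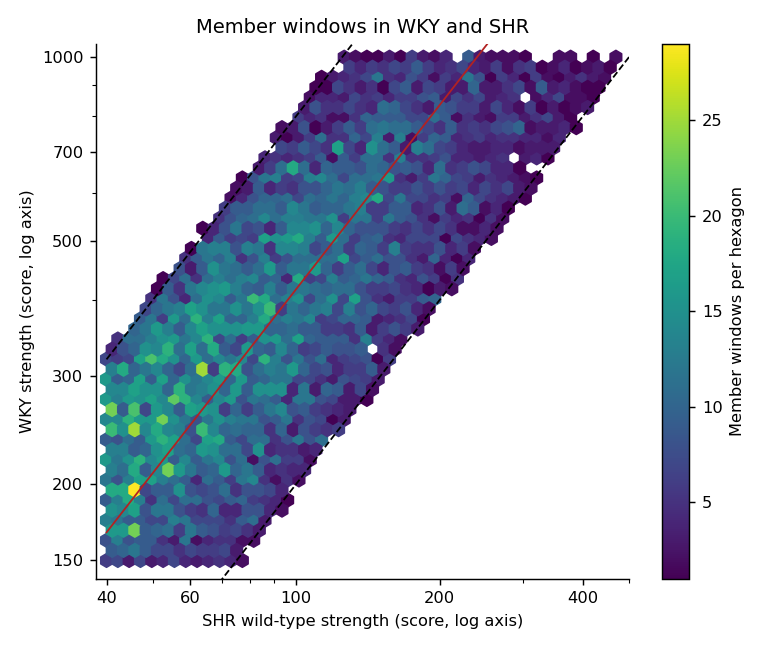
WKY strength against wild-type SHR strength (scores, log axes) of the 9855 members, with the number of windows in each hexagon as colour, dashed lines at the ratio bounds of 2 and 8 and a red line at the median ratio of 4.17. Members filled the band between the bounds, with more of them at the lower strengths.

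The KO/wt strength of a member was a median 0.963 times its wild-type SHR strength (0.953 to 0.972), with a 5th to 95th percentile of 0.557 to 1.73, and 4503 members (45.7%) had the higher value in KO/wt. The ratio rose with the WKY strength class. From the lowest to the highest WKY strength class its median was 0.909 (0.889 to 0.932), 0.916, 0.941, 0.990 and 1.07 (1.04 to 1.09). The ratio does not contain the WKY library, but the rise is not independent of the rule. The bounds between 0.5 and 2 hold the ratio in each class. The bounds on the WKY ratio tie WKY strength to wild-type SHR strength, which is the denominator here. In the lowest class the minimum in wild-type SHR also removes windows with a low denominator, which can lower the median ratio by construction. How much of the rise comes from these bounds was not tested. The share of members with a KO/wt call was 74.8% in the lowest class and 95.2% in the highest. Hotspots common to WKY and wild-type SHR by their calls that kept the BN bound and failed another part of the rule had a median ratio of 0.874 (0.860 to 0.889), over the 8311 of them with a wild-type SHR and a WKY strength above 0. Those with a WKY strength of at least 1000 had 1.14 (1.09 to 1.17, n = 974).

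The rule ties wild-type SHR, KO/wt and WKY together through its ratio bounds, so their correlations across members describe the choice. The Spearman correlation was 0.853 between wild-type SHR and KO/wt and 0.648 between KO/wt and WKY, each over 9855 windows. KO/KO strength, which the rule did not use, correlated at 0.0381 with wild-type SHR, 0.0531 with KO/wt, -0.0251 with WKY and 0.0863 with BN. BN strength was held below 30 by the rule, and correlated at 0.00772 with wild-type SHR and -0.00442 with WKY.

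The rule did not use the KO/KO library, and in that library the members carried almost no signal. A hotspot was called in KO/KO at 143 members (1.45%, 1.23 to 1.71%), against 38.8% of all autosomal windows. Since a window enters the table through a call in some library, many of those 38.8% were listed for KO/KO itself. So were 79 of the 143 members, which had no call in another library. Windows chosen for other libraries are a closer comparison. The other shared hotspots were the 8322 windows with calls in both wild-type SHR and WKY and a BN strength below 30 that failed another bound of the rule. KO/KO was called at 110 of them (1.32%, 1.10 to 1.59%), an interval that overlaps that of the members. The sets differ in definition, since members did not need calls in wild-type SHR and WKY. Among the 8835 members with both of these calls, KO/KO was called at 0.668%, below the share of the other shared hotspots. It was called at 2.56% of 10528 windows that had a BN strength of at least 40 and strengths below 30 in wild-type SHR and WKY. A KO/KO strength of at least 40 was reached by 185 members (1.88%, 1.63 to 2.16%), against 29% of all autosomal windows and 1.87% of the other shared hotspots.

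KO/KO strength at members was centred near 0, with a few high values. It was below 0 at 1808 members (18.3%) and ranged from -163 to 474. The median was 3 in each WKY strength class, so that members of 150 to 241 and members of 599 to 999 in WKY had the same KO/KO level. The share called in KO/KO was 2.18% in the lowest WKY class, 1.98%, 1.07% and 1.27% in the next, and 0.761% in the highest. Among other shared hotspots it was 3.35% (2.61 to 4.29%) of the 1790 with a WKY strength below 150, and 1 of the 974 at or above 1000 (0.103%, 0.0181 to 0.579%).

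**Figure D3:**
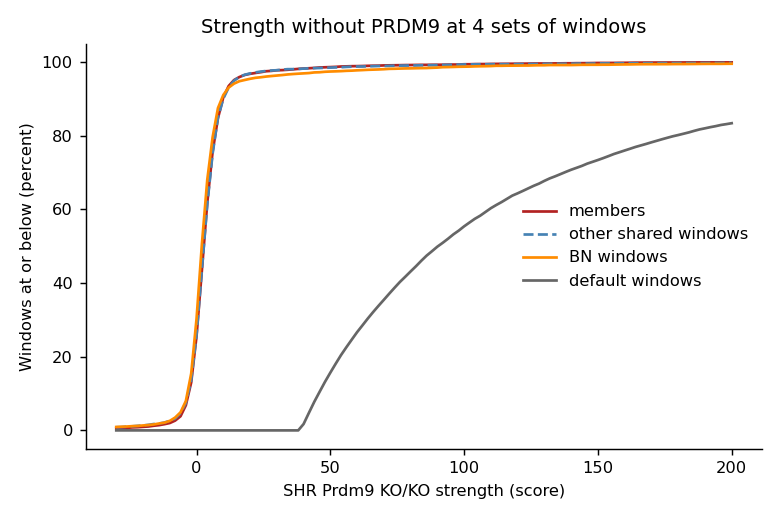
Cumulative share of windows (percent) by KO/KO strength (score, horizontal axis) for the members, the other hotspots shared by SHR and WKY, the BN windows and the default windows, which had a KO/KO strength of at least 40 and below 30 in the 3 wild-type libraries. Members and the other shared hotspots both had a median of 3, against 2 in the BN windows and 91 in the default windows.

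Members with high KO/KO strength mostly lay over another window. The highest KO/KO strength, 474, was at chr4:55425766-55428766, where wild-type SHR had 88, KO/wt 130, WKY 292 and BN 14, and the one call was in KO/wt. A window overlapping it, chr4:55425123-55428123, was called in KO/KO with a strength of 608, and had -43 in wild-type SHR and -81 in WKY. A second overlapping window, chr4:55426615-55429615, was called in wild-type SHR with 83 and in WKY with 340, and had 30 in KO/KO. A hotspot called in KO/KO and one called in wild-type SHR and WKY thus overlapped this member from either side. Of the 5 members with the highest KO/KO strength, 4 overlapped other windows and lacked a KO/KO call of their own. The exception was chr3:70550839-70553839, which overlapped no other window and was called in wild-type SHR, KO/wt, KO/KO and WKY, with strengths of 87, 146, 306 and 352, and 15 in BN.

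Among members that overlapped no other window, 48 of 8217 were called in KO/KO (0.584%, 0.441 to 0.774%). Among those that did overlap one, 95 of 1638 were (5.80%, 4.77 to 7.04%). A KO/KO strength of at least 40 was found in 35 of the former and 150 of the latter. The calls were therefore concentrated where windows share signal, and the part of neighbouring windows in them was not tested.

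Members called in KO/KO had a higher KO/wt strength relative to wild-type SHR. The median ratio was 1.27 (1.14 to 1.40) in the 143 called members and 0.961 (0.951 to 0.969) in the 9712 others. In the 48 called members without an overlapping window it was 1.49 (1.24 to 1.62), against 0.964 (0.953 to 0.973) in the 8169 others without one. Those 48 had medians of 291.5 in WKY, 85.5 in wild-type SHR, 113 in SHR KO/wt, 50 in KO/KO (40 to 67) and 10 in BN. Their wild-type SHR level was like that of other members, and their KO/wt level was higher. WKY strength relative to wild-type SHR was a median 3.69 (2.92 to 4.17) in these 48 and 4.16 (4.11 to 4.20) in the others, with overlapping intervals. In all 143 called members it was 3.77 (3.36 to 4.02), against 4.17 (4.13 to 4.21) in the 9712 others, and these intervals did not overlap. Whether KO/wt would show the same in a second animal was not tested.

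The nearest KO/KO hotspot lay at a median of 26.3 kb from a member (25.3 to 27.2 kb), and 771 members (7.82%, 7.31 to 8.37%) had one within 3 kb, the 143 called members included. The distances were close to those of the other shared hotspots, with 25.5 kb (24.5 to 26.4 kb) and 8.42% (7.85 to 9.04%). From BN windows the distance was shorter, at 22.1 kb (21.4 to 22.9 kb), and 10.03% of them (9.47 to 10.6%) had a KO/KO hotspot within 3 kb. The nearest BN hotspot was at a median of 42.8 kb from members (41.5 to 44.1 kb) and 42.2 kb from other shared hotspots.

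KO/KO strength fell below 0 most often beside a KO/KO hotspot. Of 628 members without a KO/KO call but with a KO/KO hotspot within 3 kb, 291 (46.3%) were below 0, their median was 0 (-1 to 1), and their range was -163 to 474. The share below 0 was 18.9% at 3 to 10 kb, 16.5% at 10 to 50 kb and 15.7% at 50 kb or more, each with a median of 3. Of the 90 uncalled members with a KO/KO strength of at least 40, 85 lay within 3 kb of a KO/KO hotspot, as did the lowest value. The ratio of WKY to wild-type SHR was 4.39 (4.31 to 4.49) at 3 to 10 kb, 4.25 (4.19 to 4.33) at 10 to 50 kb and 3.88 (3.81 to 3.94) beyond. It was 4.35 (4.20 to 4.57) in the 628 members within 3 kb. The ratio of KO/wt to wild-type had no single direction with distance, at 0.987 (0.944 to 1.04) within 3 kb, 0.916 (0.897 to 0.939) at 3 to 10 kb, 0.943 (0.930 to 0.957) at 10 to 50 kb and 1.00 (0.982 to 1.02) beyond.

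In BN, 3 members were called as hotspots (0.0304%, 0.0104 to 0.0895%), against 20.8% of all autosomal windows, and the rule's bound on BN strength leaves little room for more. BN strength ran from -227 to 29, and 831 members were below 0. The BN median was 9 in each WKY strength class. From the lowest to the highest of 5 BN strength classes the median WKY ratio stayed between 4.12 and 4.20, and the median KO/wt ratio between 0.953 and 0.977.

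Along the chromosomes, members were found on each of the 20 autosomes at 2.53 to 4.77 per Mb of chromosome up to its last window. Chromosome 10 had the highest density, with 528 members, and chromosome 20 the lowest, with 146. Chromosome 1 had the most members, 1085. As a share of a chromosome's windows, members ranged from 6.14% on chromosome 20 to 12.4% on chromosome 5. Chromosome 20 thus stood lowest by both measures. None of its 146 members was called in KO/KO, against 1297 of its 2377 windows. On chromosome 19 it was 1 of 235 members. With so few calls on a chromosome, nothing is read from these counts. The median KO/KO strength was 2 to 4 on 20 of 20 chromosomes.

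**Figure D4:**
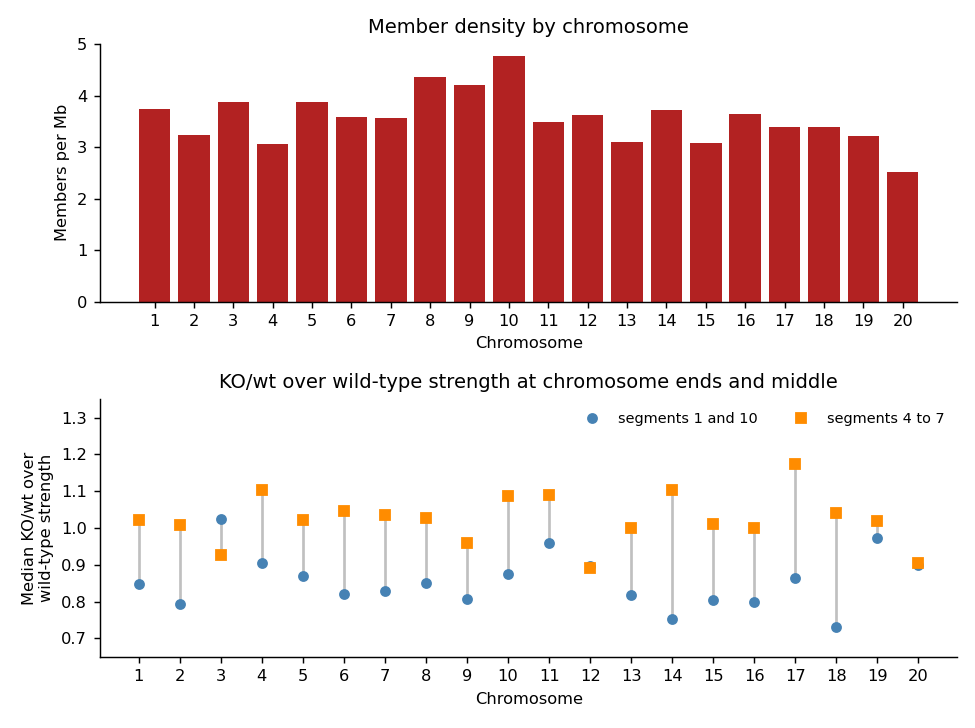
Member windows on the 20 autosomes, with members per Mb as bars above, and below the median KO/wt over wild-type strength ratio in segments 1 and 10 of each chromosome's 10 equal segments (circles) and in segments 4 to 7 (squares), joined by lines. Density ran from 2.53 per Mb on chromosome 20 to 4.77 on chromosome 10, and the circle lay below the square on 18 of 20 chromosomes.

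The ratios also varied between chromosomes. The median WKY ratio was lowest on chromosomes 2 and 11, at 3.77 each, and highest on chromosome 18, at 4.40. The median KO/wt ratio was 0.877 on chromosome 18 and 1.02 on chromosome 10.

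Members were spread over most of the genome. The nearest other member lay at a median of 75.0 kb (72.5 to 77.0 kb), and the middle 50% of these distances ran from 29.4 to 165 kb. Of 2757 bins of 1 Mb, 389 (14.1%) held no member and 61 held 10 or more. The longest stretch without a member, 65.5 Mb on chromosome 4 from 67.8 to 133 Mb, held 10 windows of any kind, and the next longest, 20.3 Mb on chromosome 2, held 8. Both were nearly empty of hotspots of every library in the rn5 table, so these gaps were shared by the other windows.

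The highest number in 1 Mb was 14, reached on chromosomes 8, 18 and 19. In the bin at 51 Mb of chromosome 8, the 14 members had strengths of 191 to 984 in WKY, 45 to 255 in wild-type SHR, 33 to 438 in KO/wt and -9 to 12 in KO/KO. Strong and weak members were neighbours there. At chr8:51095564-51098564 the strengths were 893 in WKY, 255 in wild-type SHR, 438 in SHR KO/wt, 6 in KO/KO and 13 in BN. The next member, chr8:51108927-51111927, had 250 in WKY, 50 in wild-type SHR, 35 in SHR KO/wt, 6 in KO/KO and 13 in BN. Their KO/wt ratios were 1.72 and 0.70. None of the 14 was called in KO/KO, and 1 of them was called in BN and in no other library, with a BN strength of 25.

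In the part of chromosome 17 that the study displays there were 3 members. The weakest in WKY, chr17:17605121-17608121, had strengths of 187 in WKY, 68 in wild-type SHR, 69 in SHR KO/wt, -1 in KO/KO and 1 in BN, and was called in WKY alone. The last in order, chr17:17759261-17762261, had 202 in WKY, 41 in wild-type SHR, 25 in SHR KO/wt, 3 in KO/KO and 12 in BN, and was called in wild-type SHR, KO/wt and WKY. The member between them, chr17:17645852-17648852, had 916 in WKY, 250 in wild-type SHR, 307 in SHR KO/wt, 7 in KO/KO and 11 in BN. It was also called in wild-type SHR, KO/wt and WKY. Across these 3 members, a call in wild-type SHR thus did not follow the order of strength there.

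Members were more frequent in the interior of chromosomes than the other windows were. When each chromosome was cut into 10 equal segments, segment 1 held 692 members (7.02%, 6.53 to 7.54%), segment 8 held 1206 (12.2%, 11.6 to 12.9%) and segment 10 held 897 (9.10%, 8.55 to 9.69%). Segment 10 held 12.9% of the other shared hotspots (12.2 to 13.6%), 11.7% of the BN windows (11.1 to 12.3%) and 13.1% of the default windows (12.6 to 13.6%), those with a KO/KO strength of at least 40 and below 30 in the 3 wild-type libraries. Of all autosomal windows it held 12.5%. The interval of the members did not overlap those of the other sets in segment 10. Position set no bound, but the KO/wt ratio, which the rule bounded, varied along chromosomes. The other shared hotspots include windows that failed that bound. Without it, segment 10 held 9.61% of 11716 windows, so these shares are not independent of the rule. In segment 1, the other shared hotspots had 9.57% (8.95 to 10.2%) and the BN windows 7.49% (7.01 to 8.01%).

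The KO/wt ratio was lower toward the ends of chromosomes. Its median over members was 0.854 (0.825 to 0.891) in segment 1, rose to 1.04 (1.01 to 1.08) in segment 5, and was 0.844 (0.822 to 0.870) in segment 10. The segments between followed the same course, with 0.952, 0.952 and 0.996 on the way up and 1.03, 1.02, 0.995 and 0.949 on the way down. In segments 1 and 10 together, called the ends here, the median was 0.850 (0.830 to 0.870, n = 1589), and 32.3% of members had the higher strength in KO/wt. In segments 4 to 7, the middle, it was 1.02 (1.00 to 1.04, n = 4237), and 51.5% did.

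**Figure D5:**
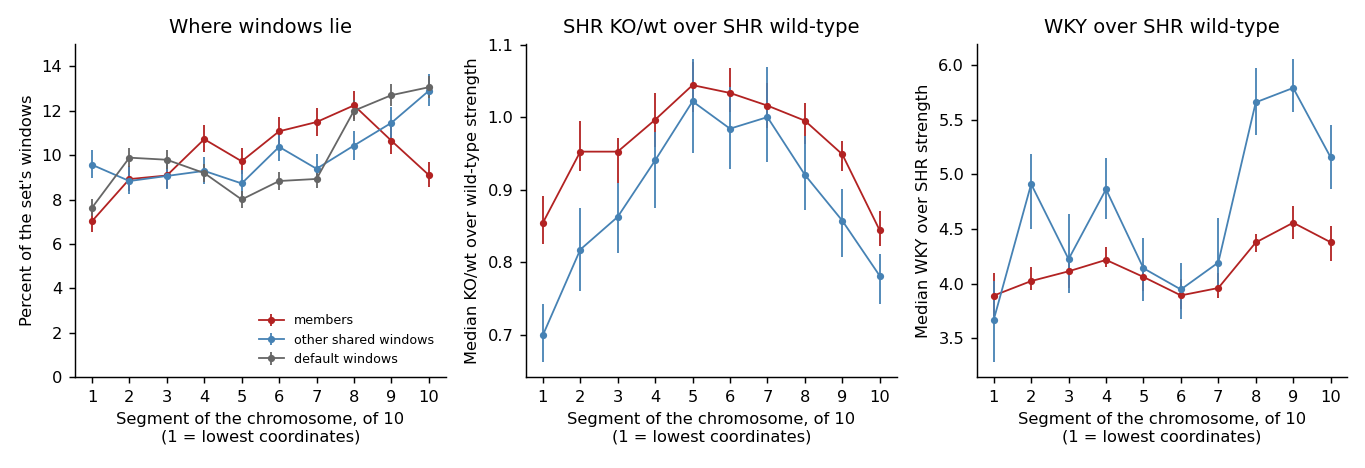
Members in 10 equal segments of each chromosome, pooled over 20 autosomes, with the share of windows in percent (left) and the median KO/wt over wild-type (middle) and WKY over wild-type SHR (right) strength ratios, beside the other shared hotspots and, on the left, the default windows; bars are 95% intervals over windows. The median KO/wt over wild-type ratio was 0.854 in segment 1, 1.04 in segment 5 and 0.844 in segment 10.

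The lower ratio at the ends was seen in most ways of dividing the members. It was lower at the ends on 18 of 20 chromosomes. The exceptions were chromosome 3, with 1.02 at the ends and 0.926 in the middle, and chromosome 12, with 0.897 and 0.890. In members that overlapped no other window the medians were 0.839 at the ends and 1.02 in the middle, and in those called in wild-type SHR, KO/wt and WKY 0.857 and 1.05. The ratio was lower at the ends in each WKY strength class, with 0.850 against 0.947 in the lowest and 0.892 against 1.15 in the highest. In the other shared hotspots, which lack the bounds on this ratio, it was 0.743 (0.718 to 0.778) at the ends and 0.975 (0.955 to 1.01) in the middle. With 1 KO/wt and 1 wild-type SHR library, a difference between libraries and one between genotypes cannot be told apart.

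The WKY library, used in place of wild-type SHR, gave the same direction. It is not an independent check, since the KO/wt library is the same and the rule ties WKY strength to wild-type SHR strength. KO/wt strength over WKY strength was a median 0.210 (0.201 to 0.218) at the ends and 0.253 (0.247 to 0.259) in the middle, and was lower at the ends on 16 of 20 chromosomes. The ratio of WKY to wild-type SHR differed between the ends themselves, at 3.89 (3.70 to 4.10) in segment 1 and 4.38 (4.20 to 4.53) in segment 10. Both ends pooled gave 4.18 (4.07 to 4.28), the middle gave 4.06 (3.99 to 4.11), and the pooled ends were higher on 10 of 20 chromosomes. By segment it was highest in segment 9, at 4.56 (4.41 to 4.71), and in segment 6 it was 3.89. Calls in KO/KO were at 2.17% (1.32 to 3.55%) of members in segment 1, 0.663% (0.337 to 1.30%) in segment 8 and 2.23% (1.45 to 3.42%) in segment 10. Of the 10 segments, segment 10 had the highest share and segment 8 the lowest. In the other shared hotspots the shares in segments 1, 8 and 10 were alike. They were 1.51% (0.864 to 2.62%), 1.38% (0.793 to 2.40%) and 1.40% (0.849 to 2.29%). The median KO/KO strength was 3 or 4 in each segment.

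The ratios were also taken over regions of 10 Mb. Over 237 regions with at least 20 members, the median KO/wt ratio ran from 0.695 (0.648 to 0.763, n = 33) at 60 to 70 Mb of chromosome 18 to 1.29 (1.10 to 1.48, n = 25) at 90 to 100 Mb of chromosome 5. The median WKY ratio ran from 2.65 (2.53 to 4.18, n = 29) at 20 to 30 Mb of chromosome 11 to 6.31 (4.29 to 6.79, n = 27) at 20 to 30 Mb of chromosome 17. These are the extremes of many regions with few windows each, which alone sets them apart to some degree. The other shared hotspots of the same regions had a median KO/wt ratio of 0.585 on chromosome 18 and 1.43 on chromosome 5, and a median WKY ratio of 1.90 on chromosome 11 and 6.91 on chromosome 17. Over 225 regions with at least 20 windows of both sets, the medians of members and of other shared hotspots had a Spearman correlation of 0.567 for the KO/wt ratio and 0.726 for the WKY ratio. The windows of the sets differ, but they come from the same libraries.

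Between single neighbours the likeness was weak. For adjacent members 3 to 20 kb apart (733 pairs) the Spearman correlation was 0.117 for the KO/wt ratio and 0.223 for the WKY ratio. It was 0.102 and 0.147 for 4882 pairs at 100 to 500 kb, and 0.132 and 0.240 for 1328 pairs at 500 kb or more. For the WKY ratio the likeness was thus lower at 100 to 500 kb than at shorter and longer distances. Overlapping members (271 pairs), which share signal, had 0.672 and 0.713.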

How the data were processed

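The authors aligned SSDS reads to rn5 with a modified bwa, and picked out fragments of single-stranded origin. Hotspot calling was restricted to type 1 fragments with a unique position, and a read pair entered when each mate had an alignment quality above 30. The submitters' processing notes name BWA 0.7.12, bedtools 2.23.0 and MACS2 2.1.0.20150420. The deposited table gives for each window and library a strength, used here as a score without a unit, and a mark for a called hotspot. How strength was computed and scaled, and how many reads each library had, is not given in the sources used here. Values cover the 5 DMC1 libraries of 13. The H3K4me3 and input libraries were not analysed here. Coordinates are those of the table in rn5, and no gene annotation of that assembly was used here.

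Members were selected by the bounds on strength given with the results, and the ratios are those of the deposited scores, with no pseudocount or rescaling. The members, comparison sets and lists were chosen with earlier results of these data known. Named windows followed a rule: the 5 members with the highest WKY, wild-type SHR and KO/KO strengths, the 3 lowest and highest in each ratio, the member nearest the middle, the members of the densest 1 Mb and of the region of chromosome 17 that the study displays, and 3 windows just inside and outside each strength bound, of which the text gives a part. Chromosome segments are 10 equal lengths from the start of a chromosome to the end of its last window. Distances are between window centres. Medians have order-statistic intervals and shares have Wilson intervals, at 95% over windows. With 1 library per condition nothing was tested between conditions.

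Computations used scipy 1.17.1, pandas 2.3.3, numpy 2.4.6 and matplotlib 3.10.9 under Python 3.11.15. The functions for members, segments, overlaps, distances and intervals passed 7 checks on simulated data with known answers, with 20000 simulated windows. The correlations and the regional bins had no such check. Alternatives were narrower bounds, a stricter BN bound, no bound on the KO/wt ratio, called or non-overlapping members alone, means in place of medians, chromosome means, and leaving out chromosomes 12 and 20.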

Additional observations from a re-analysis of the deposited data

How the results depend on the processing

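Of 86 alternative values for 12 results, 55 lay inside the 95% interval around the value as reported, or for the number of members less than 1.5 times away. Against 1, the KO/wt ratio changed sides with means (0.963 to 1.03) and, in the middle of chromosomes, without its bounds (1.02 to 0.993), while the pooled ends stayed below the middle in the 6 alternatives run for them. With narrower bounds (WKY strength of 200 to below 800 and a WKY ratio of 3 to 6) there were 5097 members, 90.7% called in both strains and 8.42% in segment 10, at 138 kb from each other, with ratios of 0.945 (KO/wt over wild-type) and 4.35 (WKY over wild-type). With a BN strength below 10 there were 5337 members, 141 kb apart, 88.2% called in both strains and 17.4% overlapping another window. Without the bounds on the KO/wt ratio it was 0.921, and 0.774 at the ends against 0.993 in the middle; 88.8% were called in both strains, at 62.9 kb from each other. Among members called in both strains (100% by construction), 0.668% were called in KO/KO and 12.0% overlapped another window, at 85.9 kb from each other. Among members overlapping no window (0% by construction), 0.584% were called in KO/KO and 94.6% in both strains, with 29.9 kb to the nearest KO/KO hotspot and 96.9 kb to the nearest member. Means in place of medians gave 4.99 for KO/KO strength, ratios of 1.03 and 4.36, and distances of 61.1 and 123 kb, and the mean of chromosome values gave 3.1 for KO/KO strength and 77.6 kb between members. The cause was not tested where construction does not give it.

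The alternatives for the ends and middle of chromosomes were chosen after seeing the data, and under them the ratio was lower at the ends on 16 to 19 of 20 chromosomes, and on 17 of 18 without chromosomes 12 and 20. No paired analysis was possible because each condition has 1 library, and nothing was tested. Unknown depth and scale limit each strength: a difference of a few units of score between libraries cannot be read.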

Other observations

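Some members had the widest KO/wt ratios the bounds allow. The highest, 2.00 within rounding, was at chr5:110586973-110589973, with strengths of 628 in WKY, 276 in wild-type SHR, 551 in SHR KO/wt, 11 in KO/KO and 4 in BN. The lowest was 0.502 at chr9:106306210-106309210, in segment 9 of its chromosome, with 983 in WKY, 311 in wild-type SHR, 156 in SHR KO/wt, 11 in KO/KO and 10 in BN. Both were called in wild-type SHR, KO/wt and WKY, overlapped no other window, and lay 139 and 62.2 kb from the nearest KO/KO hotspot.

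The 3 members listed for the lowest WKY ratio each had a ratio of exactly 2, and they differed in KO/KO. The member at chr2:48318833-48321833 was called in KO/KO and overlapped no other window. Its strengths were 174 in WKY, 87 in wild-type SHR, 134 in SHR KO/wt, 52 in KO/KO and 10 in BN. The members at chr1:112934343-112937343 and chr3:78204234-78207234 had KO/KO strengths of 0 and 3 and no KO/KO call.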
